A study of Mus musculus with 14 samples.

Results

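Ribosomal protein genes were taken as the rows whose symbol names a protein of the large (Rpl) or small (Rps) ribosomal subunit, with Rpsa, Rplp0, Rplp1 and Rplp2. Rows with a pseudogene suffix and the Rps6k kinases were left out. The rule gave 87 genes in both count tables, of 22842 genes that both tables list. Of these 87 members, 52 belong to the large subunit and 35 to the small subunit. All 87 were found in the mouse annotation GENCODE M21 (build GRCm38), where 4 of them (Rpl6l, Rps3a2, Rps3a3 and Rps4l) are annotated as pseudogenes. One further row, Rps12l1, is listed in the second table alone. It was not tested, but the family share of the second table sums it with the others (88 rows).

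The ribosome has a small subunit that reads the mRNA and a large subunit that joins amino acids, and each is built from ribosomal RNA and a set of proteins that are needed in nearly equal numbers. The genes of these proteins are transcribed at high levels in growing cells, and many of their mRNAs begin with a run of pyrimidines (C or T in the gene) through which mTOR signalling sets their translation. Blood formation is known to be sensitive to their dose: mutations in genes such as RPS19, RPL5 and RPL11 cause Diamond-Blackfan anaemia in people, and loss of a copy of RPS14 contributes to a human myelodysplastic syndrome with anaemia. Blood stem cells are known for making protein at a low rate. A few members have close relatives with restricted or special roles, among them Rps27l (a relative of Rps27 that p53 induces), Rpl22l1 (of Rpl22), Rpl3l (of muscle), and Rpl10l and Rpl39l (of testis).

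The cells were single mouse cells sorted as Lin- Tom+ in a study of how fast adult blood stem cells differentiate in vivo, and sequenced at the 3′ ends of their transcripts by a modified Smart-seq2 method. The 14 plates came from 5 mice: m4539 at day 3 (2 plates, 190 cells), m4533 at day 10 (3 plates, 107 cells), and m4528 (4 plates, 288 cells), m605 (2 plates, 143 cells) and m606 (2 plates, 189 cells) at day 17. One more plate of day 17 held 93 cells of m605 and m606 together. Days 3 and 10 are 1 mouse each, so day and mouse cannot be told apart there. All groups share that sort. The labels give no untreated group, do not say what drives or induces Tom, and give no strain, sex or age. Counts of mice m4539, m4533 and m4528 lie in the first table and those of the others in the second. Lineages were compared with the stem gate, and days with each other, within a table only. Mean levels of members, and whether lineage and stem groups overlap, take mice of both tables together.

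Barcodes with at least 500 detected genes and 10000 counts gave 1010 cells, 31 to 96 per plate, with 11070047 to 18152885 counts per plate. The 96 well barcodes were each used on several plates, so a barcode was tied to its plate before counting. Cells were gated by 8 marker genes for each of 6 types, when at least 3 were on (more than 5 counts and at least 50 CPM) and no other type had as many. How many cells each animal gave per gate limits the sums: the stem gate of m605 held 13 cells. The gates held 381 stem, 75 megakaryocyte, 116 erythroid, 117 monocyte, 164 neutrophil and 14 basophil cells, and 143 cells stayed ungated. The gates were set by these same markers, so sums of a gate's own markers were bound to be high in it and are no check of the gates. Stem markers were at 3250 to 5072 CPM (counts scaled to a common total) in stem cells and at 78.4 to 1159 CPM in the 4 lineage gates compared. In the monocyte gate, neutrophil markers (10802 to 12878 CPM) were as high as its own monocyte markers (10756 to 13880 CPM). The neutrophil gate had neutrophil markers at 12916 to 18551 CPM and monocyte markers at 2154 to 3572 CPM. The name of the monocyte gate thus rests on how many of its markers were on, and not on the marker sums. Of 12 genes of mature lymphoid, stromal, endothelial and macrophage cells, 7 had counts in the stem gate (Cd79b, Pecam1 and Col1a2 highest), while Cd3e, Cd3g, Cd79a, Jchain and C1qa had no counts there. The first table has no row for 4 of the 12. A 0 for such a gene rests on the second table only, and sums of the 12 in the first table cover only the others.

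Few members carried most of the family's counts. Rpl4, a large subunit protein at the tunnel through which the new chain leaves, had the highest mean level over mice, at 5065 ± 590 CPM (SD, n = 5 mice of both tables), though it was not the highest member in m605. It took 16.7% of the family counts of the first table, and 9.27% of those of the second. Among the other high members were the stalk base Rplp0 (2951 ± 396 CPM), Rps3 at the mRNA entry (2752 ± 471 CPM) and Rpl8 (2708 ± 969 CPM). The 10 highest members made up 71.2% of the family counts of the first table, and 61.0% of those of the second, and 5 and 8 members were enough for 50% of them. At the other end, 33 of 87 members held less than 0.1% of the family counts in each table.

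The lowest levels were those of Rpl10l (1.02 ± 0.41 CPM), the pseudogene Rps3a2 (1.15 ± 0.53 CPM), Rps6 (2.00 ± 0.68 CPM), the pseudogene Rpl6l (2.25 ± 0.72 CPM) and Rpl3l (2.28 ± 1.77 CPM). The relatives Rpl3l and Rpl10l were thus near 0, while Rpl39l was at 14.5 CPM in m606 and at 0.654 CPM or less in the other 4 mice. Core proteins of every ribosome were low too: besides Rps6, the target of the S6 kinases, Rpl24 was at 2.66 ± 0.96 CPM, Rps28 at 2.65 ± 1.08 CPM and Rps12 at 5.07 ± 2.61 CPM. Since the proteins are needed in nearly equal numbers, these levels in counts are not read as levels of protein or mRNA.

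Many members have processed pseudogenes in the genome that copy their mRNA, and how the authors' counting treated reads that match several genes is not stated by the labels. The last 300 bases of each member's transcript were therefore cut into overlapping windows of 50 bases, and each window was looked up in the transcripts of all other annotated genes. Of the 83 members that are not pseudogenes, 30 shared less than 25% of their windows with another gene, and these held 58.6% of the summed CPM with a median of 186 CPM. The 27 members that shared more than 75% held 10.02% with a median of 36.2 CPM. Across the 83 genes the level fell with sharing only loosely (Spearman's rho −0.30, a description across genes), and the unshared Rpl28 (10.1 CPM) and Rpl12 (23.2 CPM) were low too. Rpl3l and Rpl10l share no window either, but as relatives known from muscle and testis their low levels do not bear on sharing. The windows came from a single annotated transcript per gene, whose end may not be the one sequenced. The part of sharing in the levels was not tested. The order of members was alike in both tables (rho 0.94 over 87 members). Levels of members with shared ends, Rps6, Rps12 (100% of windows), Rpl24 (81.3%), Rps27 (100%), Rpl31 (87.3%) and Rps2 (79.3%) among them, are uncertain for this reason.

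**Figure D1:**
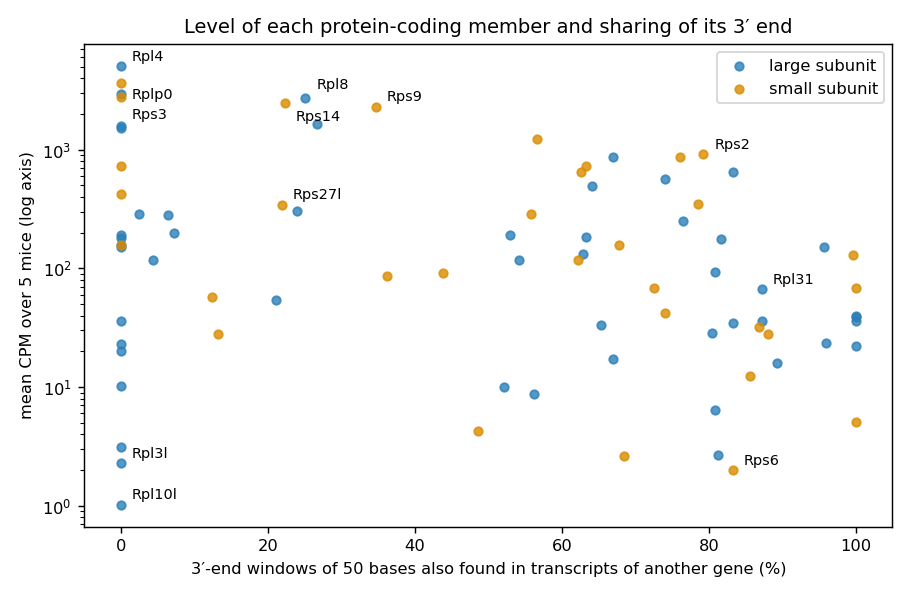
Mean level of each of the 83 members that are not pseudogenes (CPM over 5 mice, log axis) against the share of its 3′-end windows that also occur in transcripts of another gene (%). Colours mark the subunit. Rpl4, Rplp0 and Rps3, among the highest members, share no window, while members at 100% reach 68.0 CPM at most (Rps27).

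Pyrimidine runs were looked for in the 60 bases around the annotated start of each gene in RefSeq (build GRCm38.p6, 30 bases on each side, on the gene's strand only), as a run of at least 6 C or T that begins with C, of which the longest is marked. Such a run was found in 45 of 63 members with a promoter in the table (71.4%) and in 40.1% of 27025 genes. For members the start closest to that of GENCODE was taken, and for all genes the first one listed, so the starts were chosen differently. The match says only that the letters are there. The promoters of 6 members that the lineage results turn on are shown with the run in capitals, 5′ to 3′ on the gene's strand, with the annotated start at base 31.
Rpl4 (chr9:64173357-64173416, + strand): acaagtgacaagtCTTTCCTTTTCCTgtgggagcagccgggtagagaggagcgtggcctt
Rps9 (chr7:3704011-3704070, + strand): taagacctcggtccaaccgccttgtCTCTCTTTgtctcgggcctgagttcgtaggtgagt
Rps2 (chr17:24720033-24720092, + strand): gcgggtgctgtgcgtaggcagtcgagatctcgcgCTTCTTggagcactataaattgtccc
Rpl31 (chr1:39367821-39367880, + strand): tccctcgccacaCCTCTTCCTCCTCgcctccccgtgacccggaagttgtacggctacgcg
Rps27l (chr9:66946056-66946115, + strand): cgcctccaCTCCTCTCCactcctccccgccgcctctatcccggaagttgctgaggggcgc
Rpl7l1 (chr17:46782627-46782686, - strand): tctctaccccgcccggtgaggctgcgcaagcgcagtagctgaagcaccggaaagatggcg
Rpl7l1 has no such run in this window, and the other 5 have runs of 6 to 13 bases. Those of Rpl4, Rpl31 and Rps27l end upstream of the annotated start, so an mRNA that begins there would not hold them.

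As a whole the family took 3.19% of the first table's counts and 5.26% of the second's. Its share was 4.35% in m4539, 2.51% in m4533 and 3.10% in m4528, and 5.03% in m605, 5.31% in m606 and 5.56% on the plate of both. Single cells ranged from 1.14% to 12.9% over all mice. Every mouse of the second table was above every mouse of the first, so no lineage or day was compared across tables. The 240 and 259 rows with a pseudogene suffix took 0.0657% and 0.230% of counts.

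Differentiating cells gave a smaller share of their counts to ribosomal protein genes than stem cells of the same mouse, in each of the 4 lineages that could be compared. Megakaryocyte cells had 2.28% in m4533, 3.02% in m4528 and 5.16% in m606, against 2.72%, 3.60% and 6.14% in stem cells of these mice. Erythroid cells had 3.07% in m4528, 5.05% in m605 and 5.19% in m606, against 3.60%, 6.01% and 6.14% in stem cells. In every mouse the lineage lay below its own stem gate, at 0.837 to 0.855 times its level.

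Monocyte cells had the lowest share, 2.73% in m4528, 4.50% in m605 and 5.004% in m606, against 3.60%, 6.01% and 6.14% in stem cells of these mice, or 0.750 to 0.816 times. Neutrophil cells had 3.10%, 5.03% and 5.27% in these mice, 0.838 to 0.863 times the stem share. As differences, lineage minus stem, the means over 3 mice were −0.665 ± 0.280 percentage points for megakaryocyte, −0.808 ± 0.248 for erythroid, −1.17 ± 0.32 for monocyte and −0.778 ± 0.252 for neutrophil cells (SD). Without plate 5 of m606 the megakaryocyte mean was −0.421 points, and from the median over cells it was −0.362 points. No test was run on this summed score, and each mean rests on 3 mice. The basophil gate had at most 7 cells in a mouse (2.83% in m4528) and was not compared.

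The difference held within plates, a check chosen after seeing the data. It counts the plate of m605 and m606 together, whose cells are not assigned to a mouse, as do the plate checks of single members below. Several plates come from the same mouse and are not separate animals. Among plates with at least 5 cells of both gates, the lineage share was below the stem share on 7 of 7 plates for megakaryocyte, 6 of 6 for erythroid, 8 of 8 for monocyte and 8 of 8 for neutrophil cells, with medians of −0.479, −0.732, −0.954 and −0.527 points. On the 2 erythroid plates of m4528 the difference was −0.134 and −0.0522 points, smaller than the −0.522 points of the summed counts of that mouse. Other quantities moved with it. Stem cells had fewer counts per cell (medians of 261946 in m4533, 97734 in m4528, 43962 in m605 and 60146 in m606) than the lineage cells (111701 to 705654). Over all cells of these mice, counts per cell had a Spearman's rho of −0.135, −0.337, −0.371 and −0.577 with the family share. Within the gates compared it ran from −0.735 (erythroid) to 0.379 (monocyte), both in m4528. The 12 cell cycle genes summed to 2617 to 5802 CPM in the lineages and 473 to 2697 CPM in the stem gate. Genes of the mitochondrial genome took 1.03% to 2.48% of counts in the lineages and 1.48% to 3.08% in the stem gate. In cells with at least 50000 counts the differences were −0.638, −0.656, −0.928 and −0.609 points in the same order, the last 3 over 2 mice. The parts of depth and of the cell cycle in the result were not tested. The 12 genes of mature other cells summed to 4.22 to 17.9 CPM in the erythroid gate and 37.9 to 209.9 CPM in the stem gate, and to 758 CPM at most elsewhere; their part was not tested either.

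**Figure D2:**
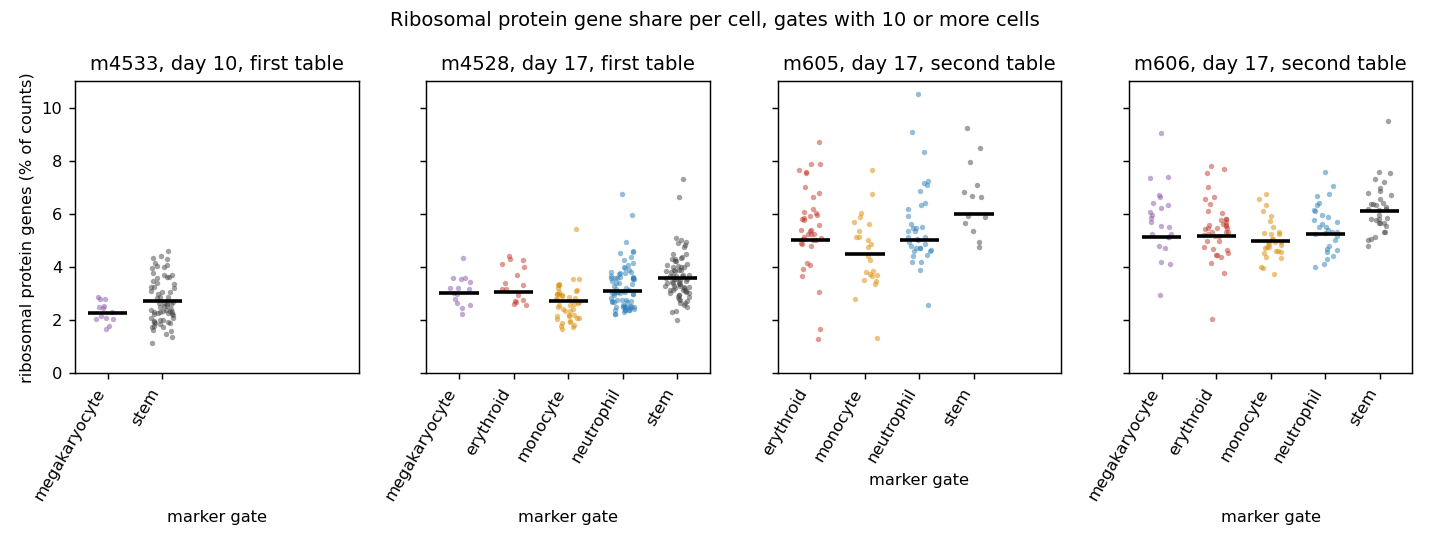
Ribosomal protein genes as a share of counts (%), per cell (points) in each marker gate with at least 10 cells of 4 mice; black bars give the share of the summed counts. In each mouse every lineage bar lies below the stem bar, and the bars of m605 and m606 (second table) lie above those of m4533 and m4528, while single cells overlap.

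The share weighs the high members most, so members were also counted one by one. In erythroid cells 35 members contributed negatively to the difference, −1.02 points in sum, and 52 positively, 0.210 points in sum, with Rps14, Rpl4, Rps9 and Rps3 among the most negative. In megakaryocyte, monocyte and neutrophil cells 54, 55 and 45 members contributed negatively, with sums of −0.740, −1.25 and −0.853 points, and 33, 32 and 42 positively. The median log2 fold change of the 87 members, each member counted once, was −0.03, 0.22, 0.05 and 0.08 in megakaryocyte, erythroid, monocyte and neutrophil cells over stem cells with TMM scaling, beside −0.09, 0.09, 0.14 and 0.16 for all 16890 genes tested. Taken relative to the family total, the medians were 0.17, 0.35, 0.15 and 0.19 for the members and 0.10, 0.23, 0.25 and 0.28 for all genes. The scaling moves members and all genes by nearly the same amount.

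Single members were tested with edgeR's quasi-likelihood test on counts summed per mouse and gate, with the mouse as a block, in 1 fit over 17 sums, and p-values were adjusted over all genes (Benjamini-Hochberg). All 87 members passed the filter on low counts. In megakaryocyte over stem cells 1 member was higher and 2 were lower at an adjusted p under 0.05, 3 of 87 in all, where 2.08% of all genes were called. In erythroid cells 4 were higher and 8 lower, where 11.1% of all genes were called. Monocyte cells had 2 higher and 2 lower (7.19% of all genes), and neutrophil cells 1 higher and 2 lower (1.81% of all genes). As shares of the 87 members these are 3.45%, 13.8%, 4.598% and 3.45%, close to the shares of all genes, so the counts are no result about the family as a group.

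A second fit took each gene relative to the summed counts of the family, which asks which members part from that total. The total weighs the high members most, so a member can be called higher without lying above the median member. It called 3 members higher and 1 lower in megakaryocyte cells (3.23% of all genes), 7 and 5 in erythroid cells (12.6%), 4 and 1 in monocyte cells (8.16%) and 2 and 0 in neutrophil cells (2.63%). Many calls depended on a single mouse. No lineage gate of m4539 reached 10 cells, and in m4533 only the megakaryocyte gate did. Leaving out m4539 therefore removes no pair of gates, and leaving out m4533 only a megakaryocyte pair. With TMM scaling and without m606 no member passed in any of the 4 contrasts with edgeR (8, 12, 6 and 4 members had an unadjusted p under 0.05). In the order megakaryocyte, erythroid, monocyte and neutrophil, 0%, 1.12%, 0.813% and 0.0884% of all genes were called there. Without m4528 the counts were 0, 6, 1 and 0 in that order, beside 0.0618%, 4.23%, 1.63% and 0.278% of all genes. Without m605 they were 3, 6, 2 and 0, beside 1.93%, 6.76%, 4.09% and 0.679%. Calls over all genes fell too, so the fall is not particular to the members. DESeq2 on all mice called 12, 23, 16 and 10 members, which include all those of edgeR, where it called 13.3%, 28.3%, 18.7% and 10.7% of all genes that it gave an adjusted p. The plate of m605 and m606 was not in the fit.

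**Figure D3:**
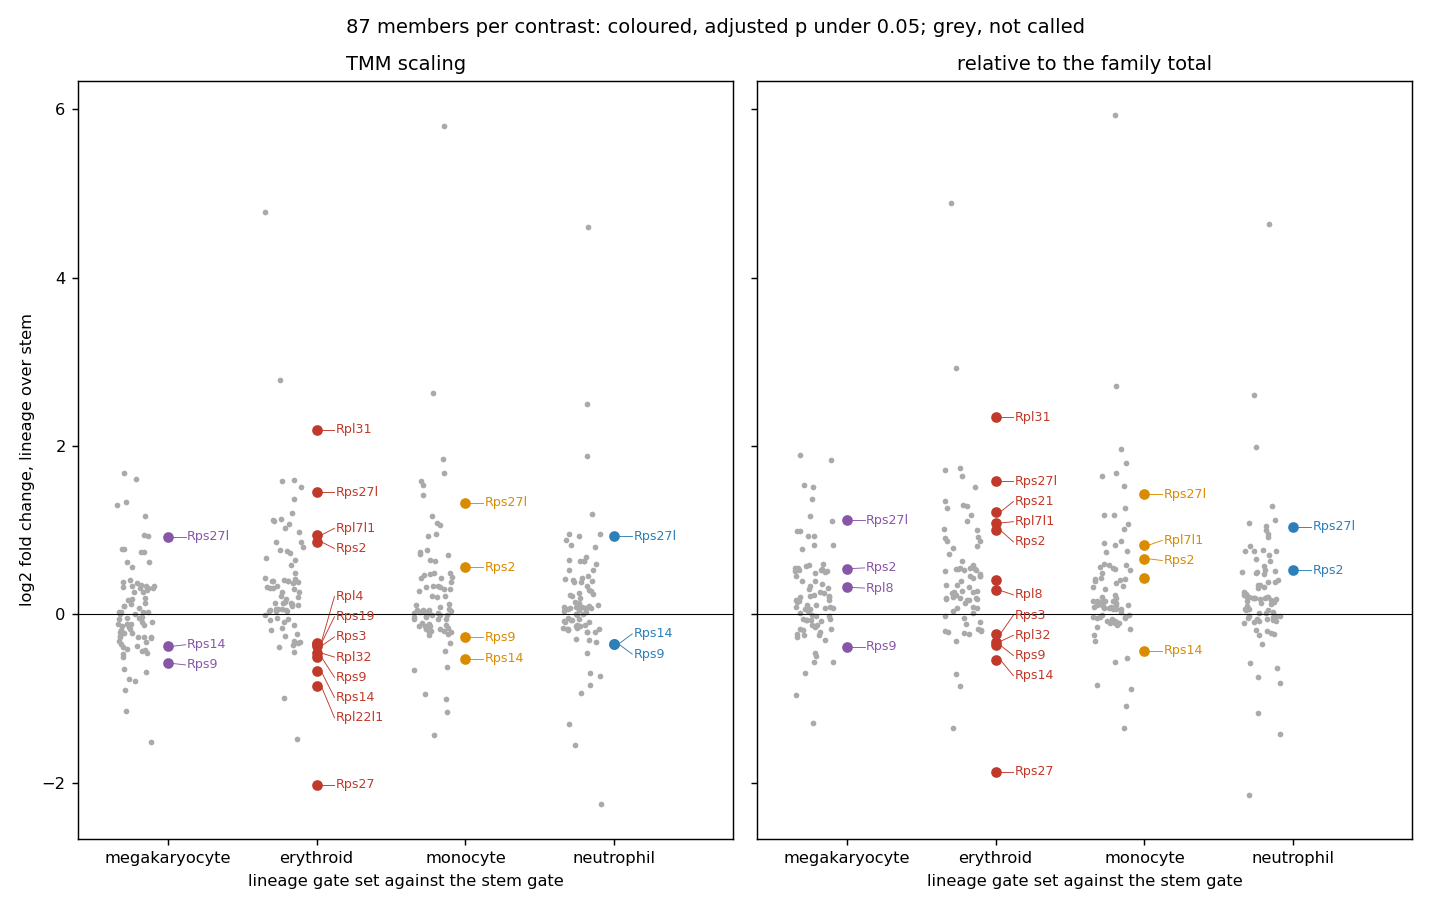
Log2 fold change of the 87 members, lineage over stem gate, with TMM scaling (left panel) and relative to the family total (right panel). Coloured points passed an adjusted p under 0.05 and are named, except for a member that is not reported here; grey points did not. Rps27l lies above 0 and is called in each of the 4 lineages, and most other members lie near 0; the highest grey points, up to 5.80 with TMM scaling, are the near-absent Rpl39l in erythroid, monocyte and neutrophil cells.

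Rps27l, the p53-induced relative of Rps27 in the small subunit, was the 1 member called higher in all 4 lineages with TMM scaling. Erythroid cells had 152 CPM in m4528, 965 CPM in m605 and 608 CPM in m606, against 54.1, 406 and 234 CPM in stem cells of these mice. Monocyte cells had 135, 869 and 419 CPM and neutrophil cells 104, 726 and 393 CPM in the same mice. Megakaryocyte cells had 104 CPM in m4533, 131 CPM in m4528 and 357 CPM in m606, against 64.7, 54.1 and 234 CPM in stem cells. Each lineage lay above the stem gate of its mouse, although values of lineage and stem cells overlap between mice, with higher levels in m605 and m606.

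With TMM scaling the log2 fold change of Rps27l was 0.92 ± 0.17 in megakaryocyte (SE, edgeR adjusted p = 0.0218), 1.45 ± 0.17 in erythroid (edgeR adjusted p = 0.000470), 1.33 ± 0.17 in monocyte (edgeR adjusted p = 0.00110) and 0.93 ± 0.17 in neutrophil cells (edgeR adjusted p = 0.0216). Relative to the family total it was called in all 4 as well (1.12, 1.58, 1.43 and 1.04). Within plates it was higher in the lineage on 7 of 7, 6 of 6, 8 of 8 and 8 of 8 plates. Leaving out single mice kept the fold change between 0.70 and 1.53 in all 4 lineages, but the call in megakaryocyte cells held without m4539 only, and the erythroid call was lost without m606 (edgeR adjusted p = 0.0723). The monocyte call was lost without m4528 (edgeR adjusted p = 0.0520) or m606 (edgeR adjusted p = 0.0849), and the neutrophil call without m4528, m605 or m606 (edgeR adjusted p = 0.193, 0.136 and 0.453).

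The coding sequences of Rps27l (gene on chromosome 9) and Rps27 (on chromosome 3) are 252 bases long each and identical at 76.2% of bases, and 21.9% of the 3′-end windows of Rps27l occur in other genes. The first 90 coding bases of both, from GENCODE M21, show how the paralogs can be told apart by sequence, with the 24 bases that differ in capitals.
Rps27l: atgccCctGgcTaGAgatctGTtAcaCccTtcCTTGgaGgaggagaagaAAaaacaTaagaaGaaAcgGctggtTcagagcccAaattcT
Rps27: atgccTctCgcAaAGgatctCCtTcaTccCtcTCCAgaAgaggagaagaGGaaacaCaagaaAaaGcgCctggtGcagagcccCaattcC
Rps27, a zinc finger protein of the small subunit, was called lower in erythroid cells, with 11.8 CPM in m4528, 37.9 CPM in m605 and 27.6 CPM in m606, against 116, 47.3 and 124 CPM in stem cells. The groups do not overlap, and the log2 fold change was −2.03 ± 0.56 (edgeR adjusted p = 0.0397). The gates were closest in m605, and the lineage was lower on 5 of 6 plates. The call was lost without m606 (edgeR adjusted p = 0.339) or m4528 (edgeR adjusted p = 0.271). Since all windows of its 3′ end occur in 9 other genes, the level of Rps27 is uncertain. In the other lineages its fold changes were −1.51, −1.01 and −1.55 and did not pass.

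Rps9 and Rps14, both proteins of the small subunit, were lower in all 4 lineages. Rps9 had 1034 CPM in m4533, 1427 CPM in m4528 and 2812 CPM in m606 in megakaryocyte cells, against 1562, 2162 and 4398 CPM in stem cells. In erythroid cells it had 1550, 2443 and 2766 CPM in m4528, m605 and m606, against 2162, 3928 and 4398 CPM in stem cells. Its log2 fold changes were −0.58 ± 0.06 in megakaryocyte (edgeR adjusted p = 0.00185), −0.50 ± 0.06 in erythroid (edgeR adjusted p = 0.000487), −0.27 ± 0.06 in monocyte (edgeR adjusted p = 0.0192) and −0.36 ± 0.06 in neutrophil cells (edgeR adjusted p = 0.0147).

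Rps14 had 899.6 CPM in m4533, 1257 CPM in m4528 and 3101 CPM in m606 in megakaryocyte cells, against 1221, 1532 and 4554 CPM in stem cells. Erythroid cells had 1035 CPM in m4528, 3060 CPM in m605 and 2581 CPM in m606, against 1532, 5903 and 4554 CPM in stem cells, a log2 fold change of −0.67 ± 0.08 (edgeR adjusted p = 0.000399). In the other lineages it was −0.38 (edgeR adjusted p = 0.0307) in megakaryocyte, −0.53 (edgeR adjusted p = 0.00225) in monocyte and −0.35 (edgeR adjusted p = 0.0480) in neutrophil cells. Both genes were lower in the lineage on every plate compared, 7, 6, 8 and 8 plates. Without m606 neither was called in any lineage (edgeR adjusted p of 0.0605 to 0.518), and without m4528 Rps9 was called in erythroid and Rps14 in erythroid and monocyte cells only. Without m605 both lost their neutrophil call (edgeR adjusted p = 0.127 for Rps9 and 0.105 for Rps14) and Rps9 its monocyte call (edgeR adjusted p = 0.0911), and without m4533 Rps14 lost its megakaryocyte call (edgeR adjusted p = 0.0892). Relative to the family total, Rps9 stayed lower in megakaryocyte (−0.38) and erythroid cells (−0.37), and Rps14 in erythroid (−0.54) and monocyte cells (−0.43).

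**Figure D4:**
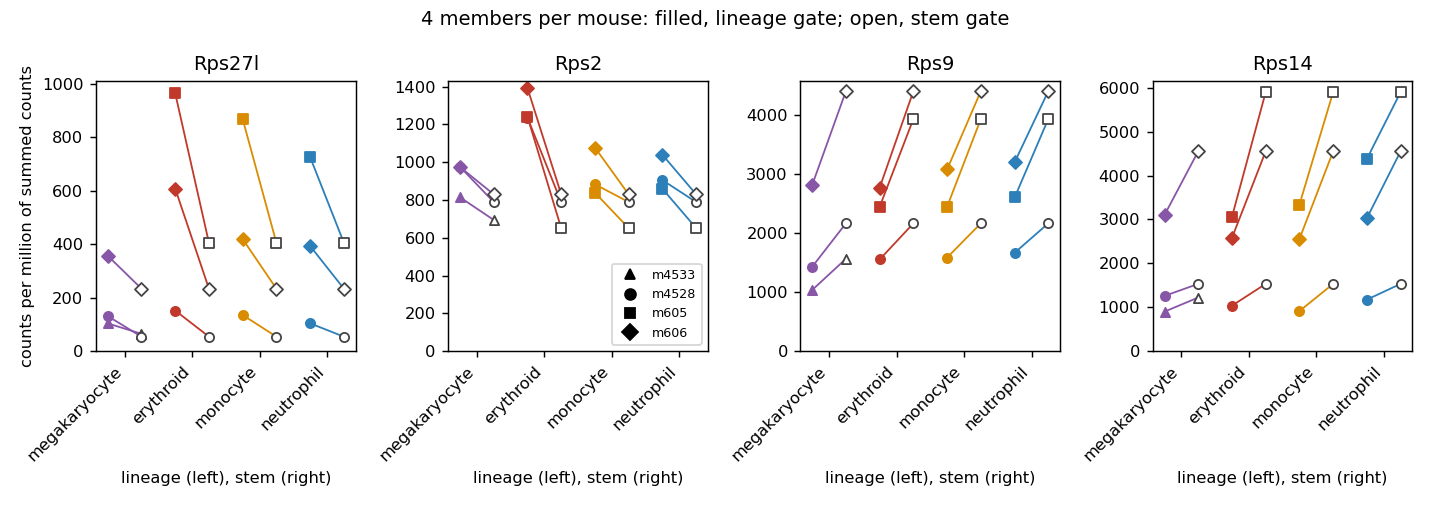
Levels of Rps27l, Rps2, Rps9 and Rps14 (CPM of summed counts) in each lineage gate (filled, left) and the stem gate of the same mouse (open, right), 1 line per mouse. Every line of Rps27l and Rps2 falls from lineage to stem, and every line of Rps9 and Rps14 climbs.

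Rps2, a protein of the mRNA entry of the small subunit, was higher in erythroid cells, with 1236 CPM in m4528, 1241 CPM in m605 and 1392 CPM in m606, against 789, 651 and 830 CPM in stem cells. The groups do not overlap, and the log2 fold change was 0.86 ± 0.12 (edgeR adjusted p = 0.000935). In monocyte cells it was 0.56 ± 0.12 (edgeR adjusted p = 0.0147), with no overlap. The erythroid call was lost without m606 (edgeR adjusted p = 0.110), and the monocyte call without m4528, m605 or m606. With TMM scaling the values for megakaryocyte (0.34) and neutrophil cells (0.41) did not pass, while relative to the family total Rps2 was called higher in all 4 lineages (0.54, 1.003, 0.66 and 0.53 in the order megakaryocyte, erythroid, monocyte and neutrophil). In erythroid cells on that scale it was the 1 member still called whichever mouse was left out, though m4539 and m4533 have no erythroid sum to lose. Windows of its 3′ end occur in 51 other genes.

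Among the other small subunit proteins, Rps3 and Rps19 were called lower in erythroid cells. Rps3 had 2326, 2478 and 2844 CPM in m4528, m605 and m606, against 3386, 3215 and 4032 CPM in stem cells, a log2 fold change of −0.38 ± 0.09 (edgeR adjusted p = 0.0178) with no overlap, lost without m606 (edgeR adjusted p = 0.248). Rps19, the gene most often mutated in Diamond-Blackfan anaemia, had 559.9, 1612 and 1429 CPM against 676, 2702 and 1909 CPM in stem cells, −0.35 ± 0.10 (edgeR adjusted p = 0.0451). It was lower on only 4 of 6 plates, and its call was lost without m4528, m605 or m606. Set against the family total, Rps21 was called higher in erythroid cells (1.21), and with a single mouse left out this call held only where it was m4539.

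In the large subunit, Rpl31, which sits near the tunnel exit, had the largest called fold change. Erythroid cells had 126 CPM in m4528, 117 CPM in m605 and 182 CPM in m606, against 59.2, 22.3 and 38.2 CPM in stem cells. The groups do not overlap, and the log2 fold change was 2.19 ± 0.47 (edgeR adjusted p = 0.0134). The fold was higher on 5 of 6 plates, and the call was lost without m4528, m605 or m606. Rpl31 did not pass in megakaryocyte (1.29), monocyte (1.07) or neutrophil cells (0.96), where each mouse with both gates showed the same sign. Since 87.3% of its windows occur in 17 other genes, its level is uncertain.

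Rpl7l1, a relative of Rpl7 with 53.0% identical coding bases, was higher in erythroid cells (378, 297 and 225 CPM against 293, 114 and 128 CPM in stem cells, log2 fold change 0.94 ± 0.22, edgeR adjusted p = 0.0194). Relative to the family total it was called in erythroid (1.09) and monocyte cells (0.82). Rpl22l1, which shares 66.9% of aligned coding bases with Rpl22, was lower in erythroid cells, with 67.5, 248 and 245 CPM against 154, 409.6 and 502 CPM in stem cells (−0.85 ± 0.21, edgeR adjusted p = 0.0271). It was below the stem gate in every mouse of the other lineages too (−0.77, −0.62 and −0.70), without passing. Both calls with TMM scaling were lost without m4528, m605 or m606.

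Rpl4 was lower in erythroid cells, at 5005, 4155 and 4731 CPM in m4528, m605 and m606 against 6928, 5812 and 5705 CPM in stem cells (−0.34 ± 0.09, edgeR adjusted p = 0.0300). Rpl32 was lower as well (628, 2177 and 2150 CPM against 809, 3779 and 3150 CPM in stem cells, −0.46 ± 0.08, edgeR adjusted p = 0.00562), though on 4 of 6 plates only. The Rpl4 call was lost without m4528, m605 or m606, and that of Rpl32 without m605 or m606. Set against the family total, Rpl8 in the catalytic part of the large subunit was called higher in megakaryocyte (0.32) and erythroid cells (0.28). The medians over all 87 members on that scale were 0.17 and 0.35, so in erythroid cells Rpl8 lay below the median member. Of the low relatives Rpl39l, Rpl3l and Rpl10l, none passed in any lineage. Nor did the pseudogenes Rpl6l, Rps3a2, Rps3a3 and Rps4l pass in any lineage.

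Whether members behaved differently in erythroid cells than in other lineages was tested in the same fit, a comparison chosen after the calls had been seen. Of the 87 members, 0 were called between erythroid and megakaryocyte cells (edgeR; 9 at an unadjusted p under 0.05, with 3.02% of all genes called), 0 between erythroid and monocyte cells (9 unadjusted, 5.93% of all genes) and 1 between erythroid and neutrophil cells (13 unadjusted, 4.86% of all genes). That member was Rps14, lower in erythroid cells by a log2 fold change of −0.32 ± 0.08 (edgeR adjusted p = 0.0410). The larger number of calls in erythroid cells is therefore not shown to be a difference between lineages, and Rpl31 (0.90, 1.13 and 1.24 over megakaryocyte, monocyte and neutrophil cells) and Rps27 (−0.51, −1.02 and −0.47) did not pass.

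Genes that work beside the ribosomal proteins were taken from a list of 26 elongation and initiation factors, chaperones and other growth-regulated mRNAs, of which 25 were tested. In erythroid cells 6 were higher and none lower: Eif3l (initiation, 1.26 ± 0.31), Eef1g (elongation, 0.99 ± 0.28), Npm1 (nucleolar chaperone, 0.98 ± 0.11), Nap1l1 (histone chaperone, 0.76 ± 0.22), Naca (chaperone of new chains) and Rack1 (listed as Gnb2l1, a protein bound to the small subunit). Monocyte cells had 2 higher (Eif3l, 1.19, and Npm1, 0.47), neutrophil cells 1 (Npm1, 0.52) and megakaryocyte cells 0 with edgeR (5 at an unadjusted p under 0.05, 2 adjusted with DESeq2). As shares of the 25 these are 0%, 24%, 8% and 4% in megakaryocyte, erythroid, monocyte and neutrophil cells, beside 2.08%, 11.1%, 7.19% and 1.81% of all genes. The medians of the 25 were −0.05, 0.47, 0.28 and 0.21 in the same order, beside −0.09, 0.09, 0.14 and 0.16 for all genes. Npm1 in monocyte cells was higher in 2 of 3 mice.

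Within the first table, the share of the family in stem-gated cells can be followed over days, with 1 mouse a day. On the 2 plates of day 3 it was 4.15% and 4.78%. On the 3 plates of day 10 it was 1.98%, 2.28% and 3.50%, and on the 4 plates of day 17 it was 3.05%, 3.42%, 3.55% and 4.16%. Plate means were 4.47 ± 0.45% at day 3, 2.59 ± 0.81% at day 10 and 3.55 ± 0.46% at day 17 (SD over plates). Plates of day 10 lie below those of day 3 without overlap, while the highest plate of day 17 (4.16%) passes the lowest of day 3 (4.15%). Plates of 1 mouse are not separate animals, so no test was made. Other quantities of the stem gate differed between these mice too. In the order of days 3, 10 and 17, median counts per cell were 124702, 261946 and 97734, and the 12 cell cycle genes summed to 1475, 1392 and 2697 CPM. Genes of the mitochondrial genome took 1.77%, 1.48% and 1.63% of counts, and the 12 genes of mature other cells summed to 105.0, 129.0 and 205.5 CPM. Their part in the day difference was not tested. In the second table, the stem gate of m606 had 6.09% and 6.20% on its plates at day 17.

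Members were then taken as shares of the family counts, so that this shift of the whole does not enter. These shares sum to 100%, so a higher share of some members is a lower share of others. Of the 87 members, 27 had plates of day 17 that lay below those of day 3 without overlap and at least 1.5 times apart, which is 31.0% of members where 10.4% of all genes met the same rule. In the other direction 2 members met it, where 5.02% of all genes did. In CPM, 30 members were lower, beside 13.2% of all genes, and 1 was higher, beside 2.37%. Less than 1.5 times apart but without overlap were 9 members higher at day 17, among them Rpl4 (1.49 times), Rps2 (1.44 times), Rplp0 (1.41 times) and Rpl3 (1.39 times), and 3 lower. The 27 include Rps14 (0.542 times), Rps19 (0.547 times), the stalk proteins Rplp1 (0.465 times) and Rplp2 (0.517 times), and Rpl32 (0.511 times).

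Rps27l made up 0.297% and 0.474% of family counts on the plates of day 3, 0.132% to 0.294% at day 10 and 0.0697% to 0.208% at day 17, with no overlap between days 3 and 17. Rpl35a had 0.265% and 0.456% at day 3, 0.136% to 0.379% at day 10 and 0.0924% to 0.221% at day 17. Rpl38 had 0.0564% and 0.104% at day 3, 0.0127% to 0.0497% at day 10 and 0.0227% to 0.0298% at day 17. Rps21, Rpl10, Rpl35 and Rpl23a also lay below their day 3 plates at day 17, at 0.359, 0.318, 0.368 and 0.284 times their level there. The plates of Rpl10 at day 10 (0.0405%, 0.0870% and 0.203%) overlap those of day 3 (0.0776% and 0.108%), and Rpl23a rests on shares of at most 0.0140%. At day 17 Rpl10 was at 0.00744% to 0.0481%, Rpl35 at 0.0110% to 0.0196% and Rps21 at 0.0279% to 0.0436%. The plates there held 57363 to 112349 family counts, so these ratios rest on few counts. Of the 3′-end windows, 100% of Rpl10, 96.0% of Rpl35, 80.9% of Rpl23a and 36.3% of Rps21 occur in other genes. Rpl31 went the other way, with 0.0385% and 0.0829% at day 3, 0.0191% to 0.0485% at day 10 and 0.130% to 0.201% at day 17, a ratio of 2.70. Rpsa, the laminin receptor precursor, was the other member that was higher (1.94 times).

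Transcript length moved with these differences. The 27 members lower at day 17 had a median transcript length of 612 bases, and the 54 members that did not meet the rule had 842 bases (pseudogenes left out). Across 82 members the ratio of day 17 to day 3 had a Spearman's rho of 0.47 with transcript length, against −0.20 to −0.08 for the lineage fold changes. The part of length, library making and mouse in the day difference was not tested.

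**Figure D5:**
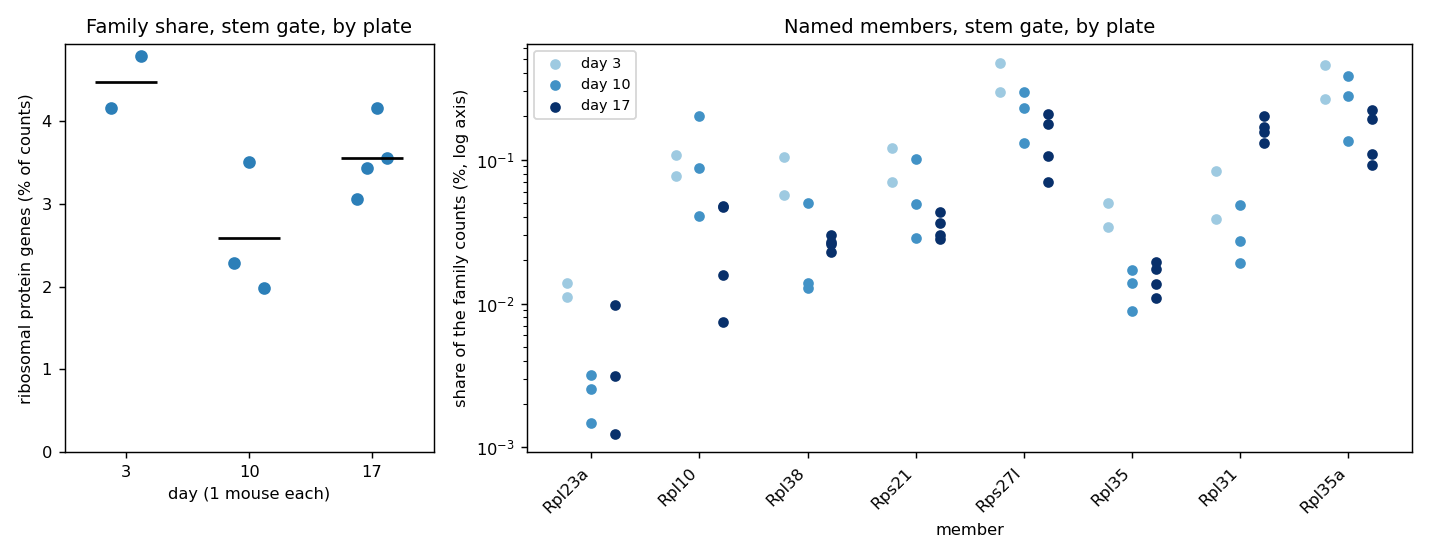
Left: ribosomal protein genes as a share of counts (%) in stem-gated cells of the first table, 1 point per plate and a bar at the plate mean. Right: share of the family counts (%, log axis) of 8 named members on the same plates; 1 plate of day 17 at 0 for Rpl23a is not drawn. Points of day 17 lie below those of day 3 for 7 of the members and above them for Rpl31.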

How the data were processed

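Single Lin- Tom+ cells on 14 plates were measured with a modified Smart-seq2 method that reads 3′ ends, per the labels' protocols. The authors deposited raw counts per gene and cell in 2 tables, with build GRCm38 per the submitters' processing notes; the aligner, the counting of reads that match several genes and any use of molecular identifiers are not stated there. Whether values count reads or molecules is therefore not known, and counting errors cover counting only. Barcodes with at least 500 genes and 10000 counts were kept (1010 of 9357), gated by markers and summed per mouse and gate where at least 10 cells were present (17 sums, 8 residual degrees of freedom). The main test was edgeR 4.0.16 (R 4.3.3) by quasi-likelihood with the mouse as a block, since gates of a mouse come from the same animal, with TMM scaling or relative to the family total; DESeq2 1.42.0 was the alternative. Deviations of gates of the same mouse correlated at 0.0485 to 0.106 over 10324 genes, a check on m605 and m606 of the second table only, where the deviations of the 2 mice mirror each other. The fit was tested on simulated data with 200 changed genes. Python 3.11.15, numpy 2.4.6, scipy 1.17.1 and pandas 2.3.3 were used for the rest. Genes were named by level (5 highest and 5 lowest), by calls (largest fold changes in each contrast), as paralogs, and by the largest day differences; Rpl12, Rpl24, Rpl28, Rpl32, Rplp1, Rplp2, Rpsa, Rps12, Rps19, Rps28, Naca and Rack1 fall outside that rule in at least 1 place and were chosen after their values were seen. The members and all lists were chosen with earlier results of these data known. Some members are counted in the totals but not reported here by name.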

Additional observations from a re-analysis of the deposited data

Results flagged for a closer look

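Rows of the family with a pseudogene suffix, which are not members, took 0.0657% of the first table's counts and 0.23% of the second's. They entered the family share only under an alternative that added them, and their suffix did not exclude them from the genes tested. There are no control samples to set them against.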

How the results depend on the processing

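Of 45 results on named members, 697 values under an alternative gave no reversed direction; 440 kept their side of the threshold and 257 lost it. Counts of members called, in the order megakaryocyte, erythroid, monocyte and neutrophil over stem cells, were 3, 12, 4 and 3 with TMM scaling. They were 12, 23, 16 and 10 with DESeq2. These are 13.8%, 26.7%, 18.4% and 11.6% of the members with an adjusted p, beside 13.3%, 28.3%, 18.7% and 10.7% of all genes. With the plate of m605 and m606 as a further unit (it shares animals with both) they were 11, 21, 14 and 11. The shares of all genes rose there too, to 5.10%, 18.7%, 12.5% and 5.60%. In the second table alone, where only m606 has a megakaryocyte sum, the other lineages had 4, 0 and 0. This stands beside 3.33%, 0.972% and 0.165% of all genes. The first table alone, where fewer mice were fitted, gave 0 members and 0% of all genes in megakaryocyte cells (7 members at an unadjusted p under 0.05 with edgeR). The other lineages have a sum in m4528 only there. No filter on low counts gave 6 in erythroid (7.79% of all genes) and 1 in neutrophil cells (1.18%). With 5 cells per sum there were 6 in megakaryocyte cells (2.28%), and with a marker threshold of 20 CPM 7 in monocyte cells (7.53%). Leaving out each mouse gave 0 to 4, 0 to 14, 0 to 8 and 0 to 3. The shares of all genes then ran from 0% to 2.51%, 1.12% to 13.3%, 0.813% to 8.65% and 0.0884% to 2.24%.

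Relative to the family total the counts were 4, 12, 5 and 2. They were 15, 27, 10 and 7 with DESeq2 (beside 16.0%, 30.3%, 22.2% and 11.98% of all genes), 8, 27, 11 and 8 with the mixed plate, 0 in all 4 in the first table alone (4, 1, 1 and 0 unadjusted) and 0, 3, 0 and 0 in the second. A marker threshold of 20 CPM gave 0 in megakaryocyte cells (11 unadjusted), and erythroid cells had 6 without the filter and 6 with 5 cells per sum. Leaving out each mouse gave 0 to 5, 1 to 14, 0 to 5 and 0 to 2.

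Without the replicate block (no replicate block, the table as a term), TMM counts were 1, 6, 1 and 1, beside 3.55%, 16.1%, 11.4% and 3.16% of all genes. Those relative to the family total were 2 in megakaryocyte (5.79% of all genes), 1 in monocyte (11.2%) and 1 in neutrophil cells (3.34%). The pairing comes from the animal.

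The difference in family share kept its sign under every alternative run. As a median over cells it was −0.362 points in megakaryocyte cells. Leaving out single plates gave −0.777 to −0.421, −0.951 to −0.724, −1.22 to −1.0003 and −0.822 to −0.681 points in the 4 lineages, and in the stem gate −2.34 to −1.56 points for day 10 minus day 3 and −1.24 to −0.602 points for day 17 minus day 3. Depth limits the low members: 33 of 87 hold under 0.1% of the family counts in each table.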
